A study of Mus musculus with 8 samples.

Results

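The 30 genes described here serve fatty acid uptake, lipid droplets and fatty acid oxidation. They form a fixed list of symbols chosen by function, but with earlier results of these data known. Shares set against all genes are therefore descriptions of a list not independent of the data. All 30 were found among the 18125 genes of the tables, and each was listed in all 8 libraries. By role they comprise 5 genes of fatty acid uptake and binding, 3 of lipid droplets and lipolysis, 4 of fatty acid activation and the carnitine shuttle, 10 of mitochondrial beta-oxidation, 3 of electron transfer from the beta-oxidation dehydrogenases, 2 of peroxisomal beta-oxidation, and 3 nuclear receptors or coactivators.

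Macrophages take up fatty acids as free acids or as triglyceride that lipoprotein lipase has cut at the cell surface, and they store the surplus as triglyceride and cholesterol ester in lipid droplets. Fatty acids released from droplets are joined to coenzyme A, carried into mitochondria as carnitine esters and shortened by repeated cycles of beta-oxidation, while peroxisomes shorten very long and branched chains. The nuclear receptor PPAR-gamma, itself activated by fatty acids, is known to drive several of the uptake and droplet genes in macrophages and fat cells.

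The libraries come from C57BL/6 mice that were wild-type (WT) or Slc6a8-/y, called knockout (KO) here. Slc6a8 lies on the X chromosome and encodes the creatine transporter. Peritoneal macrophages were elicited by an intraperitoneal injection of 1 ml of 4% thioglycollate, collected after 3 to 4 days, and left untreated or exposed for 12 hours to 10 ng/mL IFN-gamma. Macrophages derived from bone marrow, grown with 10% M-CSF for 5 days, were left untreated or exposed for 6 hours to 10 ng/mL IL-4. Every one of these 8 conditions has 1 library of whole-cell RNA, and the labels do not say whether libraries of a genotype came from different animals, so any p-value here measures the spread between these libraries, which may be technical.

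The expected counts summed to between 10812678 and 11065427 in the peritoneal libraries and between 20553654 and 21221526 in the bone marrow-derived ones. Slc6a8 stood at 39.52 to 163.54 FPKM (fragments scaled to transcript length and to the fragments counted in the library) in the 4 WT libraries and at 0.18 to 1.71 FPKM in the 4 KO libraries. The 8 macrophage markers summed to 6090.41 to 10200.74 FPKM in peritoneal and 11609.64 to 14491.06 FPKM in bone marrow-derived libraries. Because several of the 30 genes are also fat cell genes, 8 adipocyte markers were examined. Lep and Plin1 were listed in no library, and Adipoq, Retn, Cidec and Cfd were at or below 0.15 FPKM in peritoneal and 0.24 FPKM in bone marrow-derived libraries, so that the sums of this list (54.26 to 558.71 and 63.17 to 92.9 FPKM) consisted almost wholly of Fabp4 and Lipe.

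Plin2, Cd36 and Pparg are, of the genes with a promoter entry, the 3 that fell most with IFN-gamma, so the 250 bases before their RefSeq starts (GRCm38.p6) are shown, with the hexamer AGGTCA, which nuclear receptors recognise, in capitals, or its complement TGACCT where it lies on the opposite strand. The windows are chr4:86670060-86670309 on the minus strand for Plin2, chr5:17835897-17836146 on the minus strand for Cd36, and chr6:115360894-115361143 and chr6:115362099-115362348 on the plus strand for the Pparg starts that hold the hexamer. Each runs 5′ to 3′ on the strand of its gene.
Plin2: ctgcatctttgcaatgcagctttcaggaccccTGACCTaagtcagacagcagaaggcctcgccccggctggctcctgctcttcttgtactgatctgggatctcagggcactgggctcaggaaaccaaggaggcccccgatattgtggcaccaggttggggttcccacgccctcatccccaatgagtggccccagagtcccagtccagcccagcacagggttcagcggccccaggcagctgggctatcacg
Cd36: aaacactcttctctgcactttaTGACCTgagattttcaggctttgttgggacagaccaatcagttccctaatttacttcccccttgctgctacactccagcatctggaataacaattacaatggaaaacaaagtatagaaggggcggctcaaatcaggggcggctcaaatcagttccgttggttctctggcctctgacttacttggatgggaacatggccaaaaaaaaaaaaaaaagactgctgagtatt
Pparg, upstream start: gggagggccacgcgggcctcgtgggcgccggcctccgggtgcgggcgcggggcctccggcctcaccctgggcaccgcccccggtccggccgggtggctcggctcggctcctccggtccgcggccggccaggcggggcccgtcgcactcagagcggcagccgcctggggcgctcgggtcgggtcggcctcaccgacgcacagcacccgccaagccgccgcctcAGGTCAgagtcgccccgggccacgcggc
Pparg, downstream start: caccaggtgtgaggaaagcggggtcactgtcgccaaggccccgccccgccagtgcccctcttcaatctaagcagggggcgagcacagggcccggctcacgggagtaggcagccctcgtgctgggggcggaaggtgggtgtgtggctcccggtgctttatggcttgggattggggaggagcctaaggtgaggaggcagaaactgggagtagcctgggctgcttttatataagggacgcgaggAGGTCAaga
The Plin2 gene (Entrez 11520) spans chr4:86626910-86670217, Cd36 (Entrez 12491) chr5:17781690-17888959 and Pparg (Entrez 19016) chr6:115360879-115490404. Promoters were found for 22 of the 30 genes, the entries lacking being those of Lpl, Angptl4, Fabp4, Fabp5, Acaa2, Decr1, Hsd17b4 and Ppargc1b. On either strand of the 250 bases, AGGTCA stood in 7 of the 26 promoters of these 22 genes (of Cd36, Plin2, Cpt1a, Acadvl, Acadm and, for 2 starts, Pparg) and in 14.0% of all 32851 promoters in the reference. The full direct repeat bound by PPAR-gamma with its partner RXR is AGGTCA repeated on 1 strand with 1 base of any kind between the copies. This repeat, which contains the hexamer, stood in none of the 26 promoters and in 0.0335% of all promoters. The STAT6 motif, TTC and GAA with 4 bases of any kind between them, stood in none of the 26 and in 5.85% of all promoters.

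In untreated peritoneal macrophages 4 of the 5 uptake genes and the droplet coat gene Plin2 were abundant, while the uptake gene Angptl4 ranked 9030 (WT) and 8237 (KO). Fabp5, a carrier of fatty acids in the cytosol, stood at 1350.12 FPKM (WT) and 970.19 FPKM (KO) and ranked 30 and 43 among the genes of its library. Plin2, which coats lipid droplets, stood at 1020.19 and 1241.9 FPKM and ranked 44 and 31. Cd36, a scavenger receptor that takes up fatty acids and oxidised lipoprotein, stood at 554.26 and 713.74 FPKM, and Lpl, the secreted lipase, at 439.58 and 421.94 FPKM. The 10 mitochondrial beta-oxidation genes ranged from 5.56 FPKM for Decr1 to 58.78 FPKM for Acadl over the 4 untreated libraries, below Fabp5, Plin2, Lpl, Cd36 and Fabp4 in each and above Angptl4 in each.

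All 3 droplet genes and 3 of the 5 uptake genes stood higher in untreated peritoneal than in untreated bone marrow-derived macrophages, and all 4 genes of activation and the carnitine shuttle stood lower. Of the 30 genes, 17 were higher in both untreated peritoneal libraries than in either untreated bone marrow-derived library, against 27.6% of 10994 genes at a mean of 1 FPKM or more, and 8 were lower in both, against 53.5%. The cell types were tabulated separately, with different depth and gene lists, and these are descriptions with no test. Mgll, the lipase that cuts monoglyceride, showed the widest gap, with 50.91 and 33.57 FPKM in peritoneal against 0.88 and 0.52 FPKM in bone marrow-derived cells, a 60.3-fold ratio of means. Cd36 was 8.06-fold, Fabp4 6.48-fold, Fabp5 4.26-fold, Acadl 2.31-fold and Pparg 2.26-fold higher in the peritoneal cells by the same ratio, and Plin2 1.79-fold. Ppargc1b was 1.9-fold and Pnpla2 1.8-fold higher. The rest of the 17 differed little: Hadhb 1.38-fold, Ech1 1.36-fold, Eci1 1.22-fold, Acaa2 1.21-fold, Hadha 1.17-fold, Etfb 1.16-fold, Etfdh 1.12-fold and Hsd17b4 1.05-fold. Of the 8 genes higher in bone marrow-derived cells, Cpt1a, which makes the carnitine ester at the outer mitochondrial membrane, was 1.89-fold higher there (45.64 and 49.17 against 25.36 and 24.73 FPKM), Cpt2 1.53-fold, Acsl1 1.52-fold and Slc25a20 1.28-fold. Acaa1a was 1.84-fold, Ppard 1.34-fold, Acadm 1.29-fold and Hadh 1.16-fold higher there, and Lpl, Angptl4, Acadvl, Decr1 and Etfa overlapped between the cell types. Slc27a1, a fatty acid transport protein outside the 30, stood at 76.45 and 68.41 FPKM in peritoneal against 165.09 and 169.28 FPKM in bone marrow-derived cells.

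**Figure D1:**
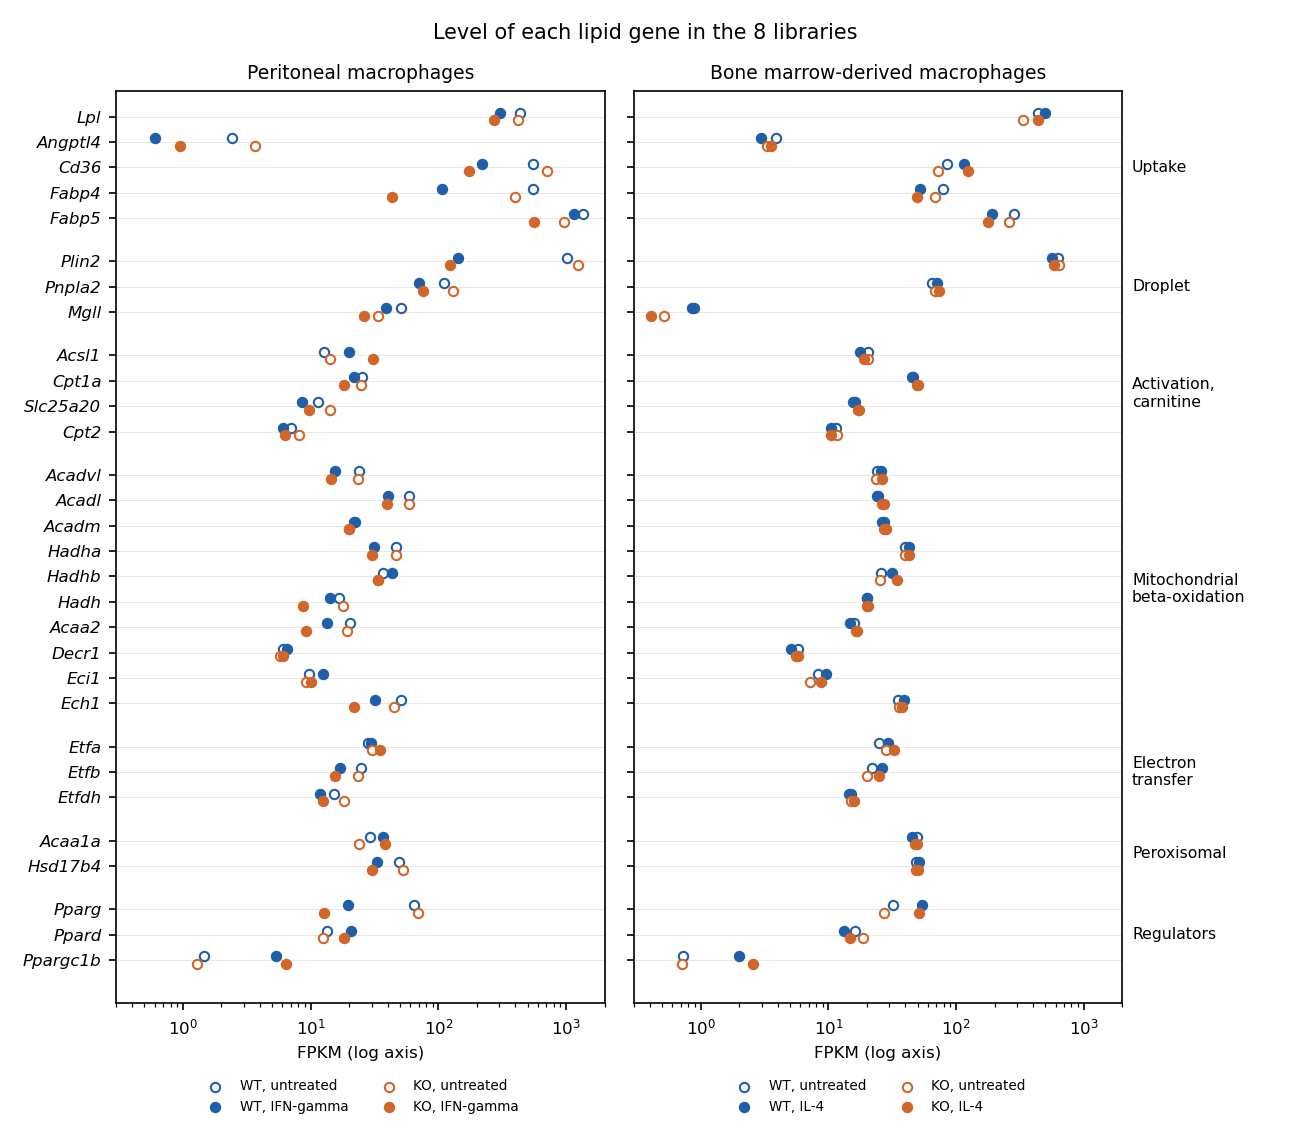
Level of each of the 30 lipid genes, by role, in the 4 peritoneal libraries (left) and the 4 bone marrow-derived libraries (right), in FPKM on a log axis, with 1 point per library and no error bars because each group has 1 library. In peritoneal macrophages the points of Plin2 lie at 1020.19 and 1241.9 FPKM without IFN-gamma and at 141.3 and 123.66 FPKM with it, while Mgll lies below 1 FPKM in every bone marrow-derived library.

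With IFN-gamma, transcripts of 4 of the 5 uptake genes, 2 of the 3 droplet genes and 5 of the 10 mitochondrial beta-oxidation genes fell in peritoneal macrophages, and Acsl1, Acaa1a, Ppard and Ppargc1b rose. Over both genotypes, edgeR called 14 of the 30 genes as fallen, against a background of 14.9% of 12052 genes tested, and 4 as risen, against 17.2%. The median log2 change of the 30 was -0.44, against -0.012 over all genes tested. In whole-culture RNA of this kind, fewer cells of a type and less RNA per cell cannot be told apart. The sum of macrophage markers was 10200.74 (WT) and 8533.23 (KO) FPKM without IFN-gamma and 7441.56 and 6090.41 FPKM with it. Most of this sum was Lyz2, at 7310.65 and 5529.22 FPKM without and 5384.67 and 4277.32 FPKM with IFN-gamma. The markers did not all fall, and Mertk went from 21.98 and 24.68 to 55.84 and 84.98 FPKM. The sum of 6 dendritic cell markers was 0.7 and 0.85 FPKM without and 31.58 and 15.43 FPKM with IFN-gamma, almost all of it Clec9a. The summed endothelial markers went from 14.19 and 21.47 to 5.44 and 10.83 FPKM, and the part of these shifts in the lipid genes was not tested.

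Of the 5 uptake genes, 4 fell. Fabp4, the other fatty acid carrier of macrophages, stood at 550.54 (WT) and 401.18 (KO) FPKM without IFN-gamma and at 105.97 and 43.33 FPKM with it. Both treated libraries were far below both untreated libraries, and the KO library was the lower one in each pair. The change was -2.68 on the log2 scale (SE 0.19), a 6.41-fold fall, with an edgeR quasi-likelihood p of 0.000304 after Benjamini-Hochberg adjustment. Cd36 stood at 554.26 and 713.74 FPKM without IFN-gamma and at 217.85 and 174.74 FPKM with it. The treated libraries did not overlap the untreated ones, and the fall was 3.02-fold (log2 -1.59, SE 0.16, edgeR adjusted p = 0.000977). Lpl was much less affected, at 439.58 and 421.94 FPKM untreated against 305.41 and 273.84 FPKM treated (log2 -0.48, SE 0.09, edgeR adjusted p = 0.00969). Angptl4, a secreted inhibitor of lipoprotein lipase, was a rare transcript at 2.42 and 3.64 FPKM untreated against 0.61 and 0.95 FPKM treated. It fell 3.59-fold (log2 -1.84, SE 0.27, edgeR adjusted p = 0.00401), on 50 and 76 counts before and 13 and 20 after, and DESeq2 did not call it. Fabp5 did not pass: its 1350.12 and 970.19 FPKM before overlapped the 1159.51 and 556.7 FPKM after (log2 -0.41, SE 0.14, edgeR adjusted p = 0.0691).

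Plin2 showed the greatest fall of the 30. Without IFN-gamma its level was 1020.19 FPKM (WT) and 1241.9 FPKM (KO), and with it 141.3 and 123.66 FPKM. The 2 treated libraries lay close together and far below the untreated ones, a 7.97-fold fall (log2 -2.99, SE 0.13, edgeR adjusted p = 5.6e-05). Pnpla2, the triglyceride lipase that opens droplet lipolysis, fell from 110.87 and 129.47 FPKM to 70.34 and 76.44 FPKM (log2 -0.61, SE 0.09, edgeR adjusted p = 0.00475). Mgll, the last lipase of the pathway, did not pass, at 50.91 and 33.57 FPKM untreated against 38.9 and 26.35 FPKM treated (log2 -0.27, SE 0.10, edgeR adjusted p = 0.0797). Its libraries separated by genotype rather than by treatment.

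Acsl1, a long-chain acyl-CoA synthetase, rose from 12.74 and 14.2 FPKM to 20.02 and 30.9 FPKM (log2 0.99, SE 0.15, edgeR adjusted p = 0.00456). Both treated libraries were above both untreated ones, and the KO library treated with IFN-gamma was the highest of all 8. The 3 carnitine shuttle genes did not pass, with log2 changes of -0.22 for Cpt1a, -0.39 for Slc25a20, the carnitine carrier of the inner membrane, and -0.19 for Cpt2, which remakes acyl-CoA inside the mitochondrion.

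Inside the mitochondrion 5 of the 10 beta-oxidation genes fell and none rose. Acadl, a long-chain acyl-CoA dehydrogenase, fell from 58.78 and 58.38 FPKM to 40.25 and 39.3 FPKM (log2 -0.46, SE 0.10, edgeR adjusted p = 0.0146). Acadvl, the very-long-chain dehydrogenase, fell from 23.85 and 23.56 FPKM to 15.65 and 14.53 FPKM (log2 -0.56, SE 0.10, edgeR adjusted p = 0.0102). In both genes the genotypes were nearly the same and the treatments were clearly separated. Ech1, which moves double bonds of unsaturated chains, fell from 51.01 and 44.66 FPKM to 31.78 and 21.78 FPKM (log2 -0.76, SE 0.12, edgeR adjusted p = 0.00551). Acaa2, the thiolase of the last step, fell from 20.25 and 19.17 FPKM to 13.36 and 9.12 FPKM (log2 -0.73, SE 0.14, edgeR adjusted p = 0.0125). For Ech1 and Acaa2 the treated KO library was the lowest of the 4. Acadm, the medium-chain dehydrogenase, was not called, at 22.22 and 20.07 FPKM untreated against 21.8 and 20.07 FPKM treated (log2 0.08). Hadh, the short-chain hydroxyacyl-CoA dehydrogenase, did not pass, and its treated libraries differed widely, at 14.25 (WT) and 8.78 (KO) FPKM (log2 -0.52, SE 0.19, edgeR adjusted p = 0.0839). Hadhb, Decr1 and Eci1 had log2 changes of 0.21, 0.19 and 0.34 and were not called.

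The subunits of the mitochondrial trifunctional protein, Hadha (alpha) and Hadhb (beta), start back to back on chromosome 5 with 272 bases between their first bases, so that most of their upstream sequence is the same DNA. The window of Hadhb, chr5:30155003-30155252 on the plus strand, is shown because the 2 genes gave different calls, and the capitals mark the interferon-type STAT motif TTCNNNGAA.
Hadhb: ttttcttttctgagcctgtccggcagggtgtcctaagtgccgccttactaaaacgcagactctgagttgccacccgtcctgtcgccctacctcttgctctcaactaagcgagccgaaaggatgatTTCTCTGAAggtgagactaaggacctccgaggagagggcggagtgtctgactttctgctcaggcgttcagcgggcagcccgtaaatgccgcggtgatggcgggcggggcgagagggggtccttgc
Of its 250 bases, 228 also lie in the window of Hadha, read on the other strand, and both windows hold this motif at the same site. The motif stood on either strand in 3 of the 26 promoters of the 22 genes with an entry and in 7.02% of all promoters. The 3 were those of Cpt2, Hadha and Hadhb, so that 1 site is counted for both Hadha and Hadhb. Hadha fell with IFN-gamma from 46.55 and 46.59 FPKM to 31.18 and 30.08 FPKM (log2 -0.51, SE 0.09, edgeR adjusted p = 0.00944). Hadhb stood at 36.76 and 33.7 FPKM untreated against 43.39 and 33.47 FPKM treated, values that overlap. With IL-4 it was Hadhb that was called, rising from 25.61 and 25.37 FPKM to 31.55 and 34.62 FPKM (log2 0.42, SE 0.06, edgeR adjusted p = 0.000708), while Hadha had a log2 change of 0.14 (edgeR adjusted p = 0.0682). The difference between the 2 genes was not tested.

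Among the electron transfer genes, which pass electrons from the dehydrogenases to the respiratory chain, the subunits of 1 protein also gave different calls. Etfb, the beta subunit of the electron transfer flavoprotein, fell from 24.9 and 23.61 FPKM to 17.1 and 15.4 FPKM (log2 -0.48, SE 0.13, edgeR adjusted p = 0.0318). Etfa, the alpha subunit, was not called, at 27.89 and 30.24 FPKM untreated against 29.75 and 34.81 FPKM treated (log2 0.24), nor was Etfdh, the membrane oxidoreductase that accepts the electrons (log2 -0.35, edgeR adjusted p = 0.0575). The peroxisomal genes moved apart. Hsd17b4, the bifunctional enzyme, fell from 49.39 and 53.17 FPKM to 33.14 and 30.19 FPKM (log2 -0.60, SE 0.10, edgeR adjusted p = 0.00693). Acaa1a, the peroxisomal thiolase, rose from 29.31 and 24.04 FPKM to 36.75 and 38.49 FPKM (log2 0.60, SE 0.13, edgeR adjusted p = 0.0187). Acaa1a has a near-identical copy, Acaa1b, listed at no more than 0.09 FPKM, and how the counting split reads between them makes its value uncertain.

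All 3 regulators were called, in different directions. Pparg, which encodes PPAR-gamma, fell from 64.56 and 68.8 FPKM to 19.7 and 12.79 FPKM, a 3.91-fold fall (log2 -1.97, SE 0.16, edgeR adjusted p = 0.000472). Ppard, the related receptor PPAR-delta, rose from 13.45 and 12.58 FPKM to 20.75 and 18.17 FPKM (log2 0.67, SE 0.10, edgeR adjusted p = 0.0044). Ppargc1b, the coactivator PGC-1beta known for its part in mitochondrial gene expression, rose from 1.46 and 1.29 FPKM to 5.4 and 6.43 FPKM, a 4.58-fold rise (log2 2.2, SE 0.18, edgeR adjusted p = 0.000492). Untreated and treated libraries were separate for each of the 3, with counts of 58 and 51.99 before and 220 and 260 after for Ppargc1b. Of the 18 calls, 11 held in every alternative fit. DESeq2 did not call Angptl4, Acadvl, Acadl, Hadha, Acaa2, Etfb and Acaa1a.

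**Figure D2:**
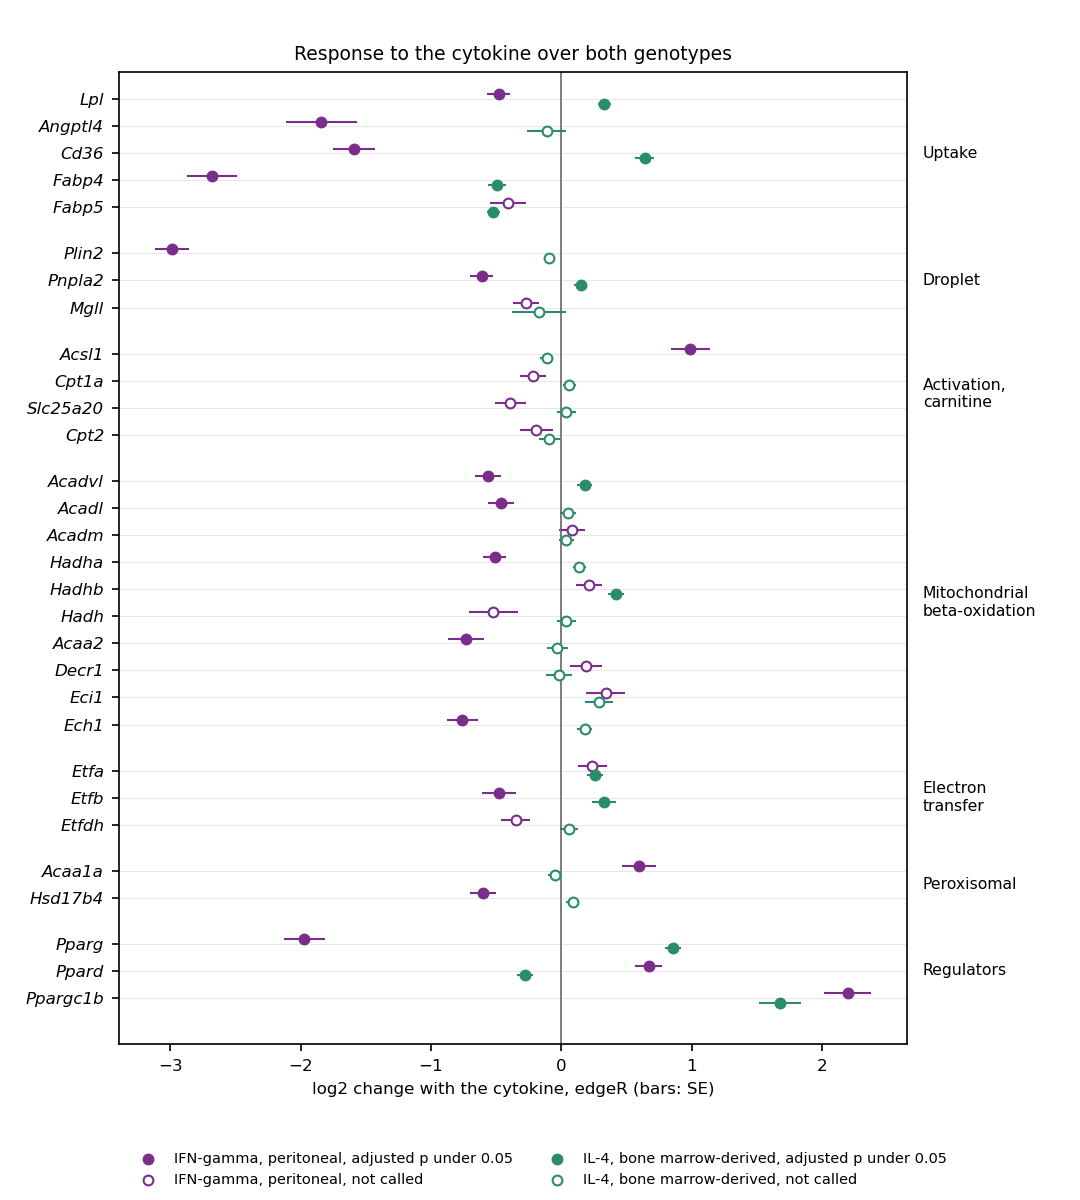
Response of the 30 lipid genes to IFN-gamma in peritoneal macrophages and to IL-4 in bone marrow-derived macrophages, as the edgeR log2 change over both genotypes, with bars of 1 SE and filled points where the adjusted p is under 0.05. Plin2, Fabp4, Pparg, Angptl4 and Cd36 lie between -2.99 and -1.59 with IFN-gamma, and Ppargc1b lies at 2.2 with IFN-gamma and at 1.68 with IL-4.

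Other genes of these pathways, a list of 93 of which 71 could be tested with IFN-gamma, gave 20 that fell (28.2%, against 14.9% of all genes) and 7 that rose (9.86%, against 17.2%), with a median log2 change of -0.29. In the droplet group 6 of 12 tested fell. Hilpda, a droplet protein that inhibits the triglyceride lipase, went from 18.69 and 24.09 FPKM to 4.4 and 2.45 FPKM (log2 -2.54). Nceh1, a cholesterol ester hydrolase, had a log2 change of -1.14 and Lpin1, a phosphatidate phosphatase, one of -1.02. In the uptake group 3 of 7 fell, among them Slc27a1 (log2 -1.86), and Lipa, the lysosomal lipase (log2 -0.47), while Fabp3, the heart-type carrier, rose (log2 1.47). Among the other acyl-CoA synthetases Acsl3 fell (log2 -1.27) and Acsl5 rose (log2 0.46). Of 18 other mitochondrial genes 2 fell (11.1%), Acads (log2 -0.64) and Hsd17b10 (log2 -0.60), and Acad9 rose (log2 0.40). Of 18 other peroxisomal genes 4 fell, with Abcd2, a peroxisomal fatty acid importer, at log2 -1.54 and Ehhadh at -1.05, and Phyh, of branched-chain oxidation, rose (log2 1.5). Among other regulators Ppargc1a, the paralog of Ppargc1b, fell from 0.27 and 0.55 FPKM to 0.06 and 0.1 FPKM (log2 -2.16, on 19.02 and 39.25 counts untreated against 4.3 and 7.53 treated), Rxra fell (log2 -0.62) and Esrra rose (log2 0.77).

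IL-4 for 6 hours moved fewer of the 30 genes, by smaller amounts, and mostly upward in bone marrow-derived macrophages. edgeR called 9 as risen, against 12.0% of 12879 genes tested, and 3 as fallen, against 9.23%. The median log2 change of the 30 was 0.05, against -0.003 over all genes tested. Of the 12 calls 7 held in every alternative fit. The smallest, Pnpla2 (log2 0.15, SE 0.05, edgeR adjusted p = 0.0489) and Acadvl (log2 0.18, SE 0.06, edgeR adjusted p = 0.0447), were lost in 6 of the 7.

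The 3 regulators were again all called. Pparg rose from 31.87 and 27.05 FPKM to 53.59 and 51.4 FPKM (log2 0.86, SE 0.06, edgeR adjusted p = 3.76e-06). Ppargc1b rose from 0.73 and 0.72 FPKM to 1.98 and 2.57 FPKM, on 57 and 56 counts before and 150 and 201 after (log2 1.68, SE 0.16, edgeR adjusted p = 5.23e-05). Ppard fell from 16.15 and 18.83 FPKM to 13.33 and 14.74 FPKM (log2 -0.28, SE 0.06, edgeR adjusted p = 0.00861). For each regulator both IL-4 libraries lay on 1 side of both untreated ones.

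The uptake genes split under IL-4, with the receptor and the lipase up and the intracellular carriers down. Cd36 rose from 85.02 and 72.24 FPKM to 115.29 and 123.42 FPKM (log2 0.64, SE 0.07, edgeR adjusted p = 0.000107). Lpl rose from 436.18 and 333.16 FPKM to 493.57 and 438.96 FPKM (log2 0.33, SE 0.05, edgeR adjusted p = 0.00159), and the treated KO library was just above the untreated WT one. Fabp4 fell from 79.07 and 67.87 FPKM to 52.37 and 49.13 FPKM (log2 -0.49, SE 0.07, edgeR adjusted p = 0.000522). Fabp5 fell from 286.06 and 258.94 FPKM to 192.43 and 178.21 FPKM (log2 -0.52, SE 0.05, edgeR adjusted p = 4.1e-05). In both carrier genes the treated libraries lay well below the untreated ones. Angptl4 ranged from 2.98 to 3.91 FPKM with overlap and was not called.

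Plin2, so responsive to IFN-gamma, was not called with IL-4, at 625.67 and 634.95 FPKM untreated against 562.12 and 586.78 FPKM treated (log2 -0.09, edgeR adjusted p = 0.146). The other calls were rises of Pnpla2 (65.14 and 68.58 to 71.01 and 73.78 FPKM), Acadvl (23.81 and 23.51 to 25.86 and 26.4 FPKM), Hadhb, Etfa (25.13 and 28.33 to 29.53 and 32.63 FPKM, log2 0.26, SE 0.06, edgeR adjusted p = 0.0152) and Etfb (21.8 and 19.99 to 26.49 and 24.76 FPKM, log2 0.33, SE 0.09, edgeR adjusted p = 0.0203). Neither the 4 genes of activation and the carnitine shuttle nor the 2 peroxisomal genes were called. Of 76 other pathway genes tested, 12 rose (15.8%, against 12.0% of all genes) and 7 fell (9.21%, against 9.23%), with a median of -0.01. Abcd2 rose from 5.46 and 5.71 FPKM to 14.87 and 17.01 FPKM (log2 1.55), and 5 of 18 other mitochondrial genes rose, among them Hsd17b10 (log2 0.57) and Acat1 (log2 0.42), while Acot2 fell (log2 -0.53). Gpat3 (log2 -1.73, at or below 0.72 FPKM in bone marrow-derived cells), Acox3 (log2 -0.34), Crot (log2 -0.27) and Slc27a4 (log2 -0.23) fell. Lpin1 (log2 0.83), Pprc1 (log2 0.44), Esrra (log2 0.40) and Abhd5 (log2 0.23) rose.

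Set side by side, 6 genes fell with IFN-gamma in peritoneal cells and rose with IL-4 in bone marrow-derived cells, namely Cd36, Lpl, Pnpla2, Acadvl, Etfb and Pparg. Ppard did the reverse. Of these calls, DESeq2 did not make those of Acadvl and Etfb with either cytokine, nor those of Pnpla2 and Ppard with IL-4. The shares of all genes called in opposite directions, in the same direction or in neither response were not counted. Ppargc1b rose with both, Fabp4 fell with both, and 9 genes were called with neither. Apart from Mgll, these had these ranges over the 8 libraries: 5.11 to 6.48 FPKM for Decr1, 6.06 to 11.69 for Cpt2, 7.23 to 12.41 for Eci1, 8.5 to 17.35 for Slc25a20, 8.78 to 20.33 for Hadh, 11.84 to 18.31 for Etfdh, 20.07 to 28.42 for Acadm and 18.35 to 50.43 for Cpt1a. Because cell type, cytokine and hours of exposure all differ between the responses, their parts cannot be told apart. A single edgeR model over the 8 libraries, added after the data were seen, tested the difference of the responses. It was lower with IFN-gamma for 15 of the 30 genes, against 12.4% of 13224, and higher for 3 (Acsl1, Acaa1a and Ppard), against 13.9%. The difference was -2.88 on the log2 scale for Plin2 (SE 0.14, edgeR adjusted p = 2.92e-05), -2.80 for Pparg (SE 0.18, edgeR adjusted p = 9.22e-05), -2.21 for Cd36 (SE 0.21, edgeR adjusted p = 0.00042) and -2.16 for Fabp4 (SE 0.23, edgeR adjusted p = 0.000755). The responses of Ppargc1b (0.54, SE 0.26, edgeR adjusted p = 0.178) and Fabp5 (0.12, SE 0.17, edgeR adjusted p = 0.636) were not called as different.

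Between genotypes few of the 30 genes passed. Over both treatments of peritoneal cells, edgeR called none of them, against 0.0249% of 12052 genes risen and 0.0083% fallen. At an unadjusted p under 0.05 there were 6 of the 30, beside 1680 of the 12052. limma called none and DESeq2 called 2, Fabp4 and Fabp5. In bone marrow-derived cells edgeR called 1 fallen gene, Lpl, against 3.68% of 12879 genes, and none risen, against 1.51%. At an unadjusted p under 0.05 there were 9 of the 30, beside 2283 of the 12879. Over the 4 pairs of both cell types edgeR called none, against 0.00756% of 13224 genes fallen and 0.0% risen, limma none and DESeq2 1, Mgll. At an unadjusted p under 0.05 edgeR had 6 of the 30, beside 1249 of the 13224.

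Lpl (chr8:68880555-68906932) in bone marrow-derived cells stood at 436.18 (WT) and 333.16 (KO) FPKM untreated, and at 493.57 and 438.96 FPKM with IL-4. The KO library was lower in each pair, although the treated KO library reached the untreated WT level. The fall was 1.21-fold (log2 -0.28, SE 0.05, edgeR adjusted p = 0.0148), and limma on FPKM did not call it (log2 -0.28, SE 0.06, adjusted p = 0.105). In peritoneal cells Lpl was also lower in each KO library, with log2 ratios of FPKM + 1 of -0.06 untreated and -0.16 with IFN-gamma. Of the 8 fibroblast and mesothelium markers, 5 were lower in KO in each bone marrow-derived pair, and 3 stood at 0 in every library of these cells. The 8 summed to 375.95 and 354.01 FPKM in the WT libraries and 200.47 and 172.38 FPKM in the KO libraries, led by Col1a1. The part of these markers in the genotype differences of Lpl, Mgll and Fabp3 in these cells was not tested.

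Mgll (chr6:88724412-88828360) was lower in the KO library of every condition. The WT and KO values were 50.91 and 33.57 FPKM in untreated peritoneal cells, 38.9 and 26.35 FPKM with IFN-gamma, 0.88 and 0.52 FPKM in untreated bone marrow-derived cells and 0.85 and 0.41 FPKM with IL-4. WT and KO libraries did not overlap within either cell type. The bone marrow-derived values rest on 69 and 62 counts in WT and 41 and 32 in KO. Over the 4 pairs the change was -0.65 on the log2 scale (SE 0.08), with an edgeR adjusted p of 0.099, and DESeq2 called it (log2 -0.67, SE 0.13, adjusted p = 0.0002). Within peritoneal cells it was -0.59 (SE 0.10, edgeR adjusted p = 0.172). Within bone marrow-derived cells it was -0.86 (SE 0.21, edgeR adjusted p = 0.0501), just outside the threshold, and 4 of the alternative edgeR fits called it.

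The carrier genes Fabp4 (chr3:10204342-10208616) and Fabp5 (chr3:10012585-10016610), members of 1 gene family that lie close together on chromosome 3, differed most between genotypes in peritoneal cells given IFN-gamma. In that pair Fabp4 was at 105.97 (WT) and 43.33 (KO) FPKM, and Fabp5 at 1159.51 and 556.7 FPKM. On the log2 scale of FPKM + 1 they were the only members compared that were at least 2-fold apart between genotypes, Mgll not being compared in the bone marrow-derived pairs because of its low level. They make 2 of 30, against 0.89% of 10670 genes lower by as much in that pair and 1.56% higher. The shares of all genes 2-fold higher and lower were 0.356% and 0.422% in untreated peritoneal cells, 0.156% and 0.248% in untreated bone marrow-derived cells, and 0.385% and 0.257% with IL-4. Markers moved in the IFN-gamma pair too. The macrophage markers summed to 7441.56 (WT) and 6090.41 (KO) FPKM, mostly Lyz2 at 5384.67 and 4277.32. Of the 8, 6 were lower in KO, among them Csf1r at 118.3 and 65.4 and Fcgr1 at 62.34 and 25.22. The other 2 were higher in KO, among them Mertk at 55.84 and 84.98. The fibroblast and mesothelium markers summed to 115.95 and 91.31 FPKM, with 7 of 8 lower in KO, and the dendritic cell markers to 31.58 and 15.43 FPKM, with Clec9a the 1 of 6 that was lower. The endothelial markers summed higher in KO, at 5.44 (WT) and 10.83 (KO) FPKM. So did those of eosinophils, basophils and mast cells (6.94 and 10.35), T and NK cells (2.19 and 3.99) and B cells (3.52 and 3.83). The neutrophil markers summed lower in KO, at 13.46 and 10.17 FPKM. The part of these marker shifts in the Fabp4 and Fabp5 difference was not tested. Over both treatments the peritoneal change was -0.85 for Fabp4 (SE 0.19, edgeR adjusted p = 0.234) and -0.78 for Fabp5 (SE 0.14, edgeR adjusted p = 0.182). DESeq2 called both, with adjusted p-values of 0.0295 and 0.00861, and limma called neither, with 0.315 and 0.286. In bone marrow-derived cells the changes were -0.16 and -0.13 (edgeR adjusted p = 0.242 and 0.192). The difference between the cell types, from the model over 8 libraries, was -0.68 for Fabp4 (SE 0.23, edgeR adjusted p = 0.244) and -0.66 for Fabp5 (SE 0.17, edgeR adjusted p = 0.163). None of the 30 genes passed that edgeR test, against 0.0681% of 13224 genes higher and 0.0378% lower, and 7 had an unadjusted p under 0.05, beside 2092 of the 13224.

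**Figure D3:**
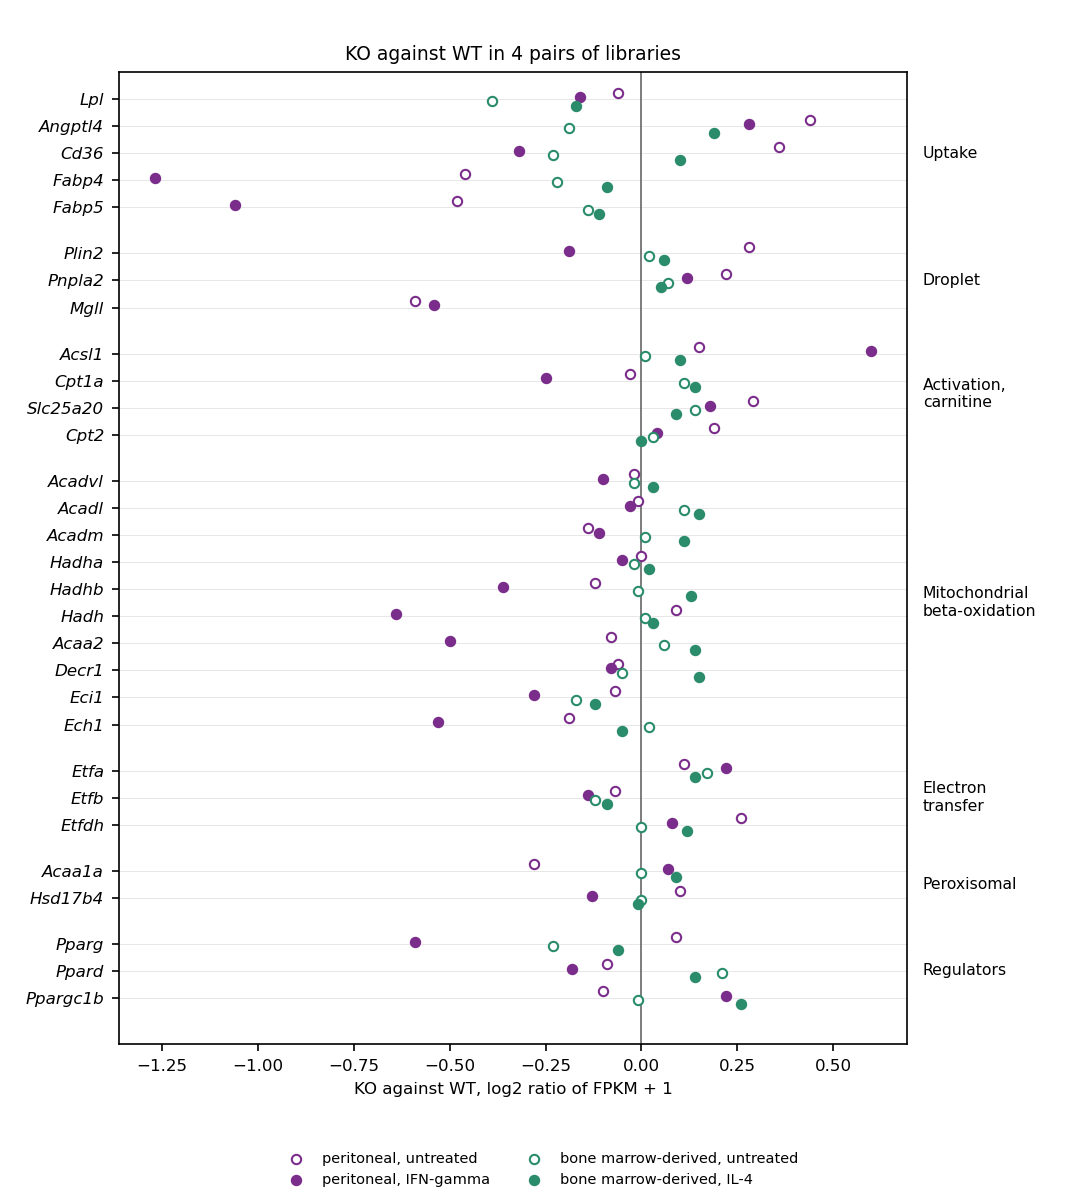
KO against WT for each lipid gene in the 4 pairs of libraries, as the log2 ratio of FPKM + 1, with 1 point per pair and no error bars because each group has 1 library. Fabp4 and Fabp5 lie at -1.27 and -1.06 in the IFN-gamma pair, and Mgll is shown for the peritoneal pairs only, at -0.59 and -0.54.

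By direction alone, 29 genes could be compared in all 4 pairs. KO was lower in every pair for 5 of them (Lpl, Fabp4, Fabp5, Eci1 and Etfb), against 8.13% of 10073 genes, and higher in every pair for 5 (Pnpla2, Acsl1, Slc25a20, Cpt2 and Etfa), against 10.3%. Most of the latter ratios were small. Cpt2 ranged from 0.00 to 0.19 and Slc25a20 from 0.09 to 0.29 on the log2 scale of FPKM + 1, and the widest was Acsl1 with IFN-gamma, at 0.60. Plin2, Cd36 and Pparg had no common direction. Of the other pathway genes, edgeR called none of 71 between genotypes in peritoneal cells, against 0.0249% of all genes risen and 0.0083% fallen. At an unadjusted p under 0.05 there were 12 of the 71, beside 1680 of 12052 genes. In bone marrow-derived cells 1 of 76 rose (1.32%, near the 1.51% of all genes) and none fell, against 3.68%. That gene, Fabp3, stood at 8.31 and 7.04 FPKM in WT and 13.08 and 11.51 FPKM in KO bone marrow-derived libraries (log2 0.68, SE 0.13, edgeR adjusted p = 0.0164). In peritoneal cells it was lower in KO, at 8.05 against 2.99 FPKM untreated and 15.59 against 12.03 FPKM with IFN-gamma, and was not called.

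The response to IFN-gamma was compared between genotypes by size alone, since 4 libraries in 4 groups leave no spread for a test. On the log2 scale of FPKM + 1, 5 members were at least 2-fold lower with IFN-gamma in WT cells (Angptl4, Cd36, Fabp4, Plin2 and Pparg), against 4.56% of 10670 genes, and 1 was higher (Ppargc1b), against 5.94%. In KO cells 6 were lower, the same 5 and Ech1, against 6.6%, and 2 were higher, Ppargc1b and Acsl1, against 7.27%. The KO response minus the WT response was below 0 for 24 of the 30 genes, with a median of -0.13, and below 0 for 6453 of 10670 genes in all, with a median of -0.063. It was below 0 for all 5 uptake genes and 9 of the 10 mitochondrial genes. Fabp4 differed most (-0.82), followed by Hadh (-0.73), Cd36 and Pparg (both -0.68), Fabp5 (-0.58), Plin2 (-0.47) and Acaa2 (-0.43). Pparg stood at 64.56 FPKM untreated and 19.7 FPKM treated for WT, and at 68.8 and 12.79 FPKM for KO. Its KO against WT ratio was 0.09 untreated and -0.59 treated. For Cd36 and Plin2 a higher untreated KO library also entered the difference. Their ratios were 0.36 and 0.28 untreated and -0.32 and -0.19 treated. Of the 4 genes that IFN-gamma raised, Acsl1 (0.46), Acaa1a (0.34) and Ppargc1b (0.32) had the higher ratio in KO cells. Ppard, the remaining one, had a slightly lower ratio there (-0.09). With each value resting on 4 single libraries, none of these differences has an error.

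**Figure D4:**
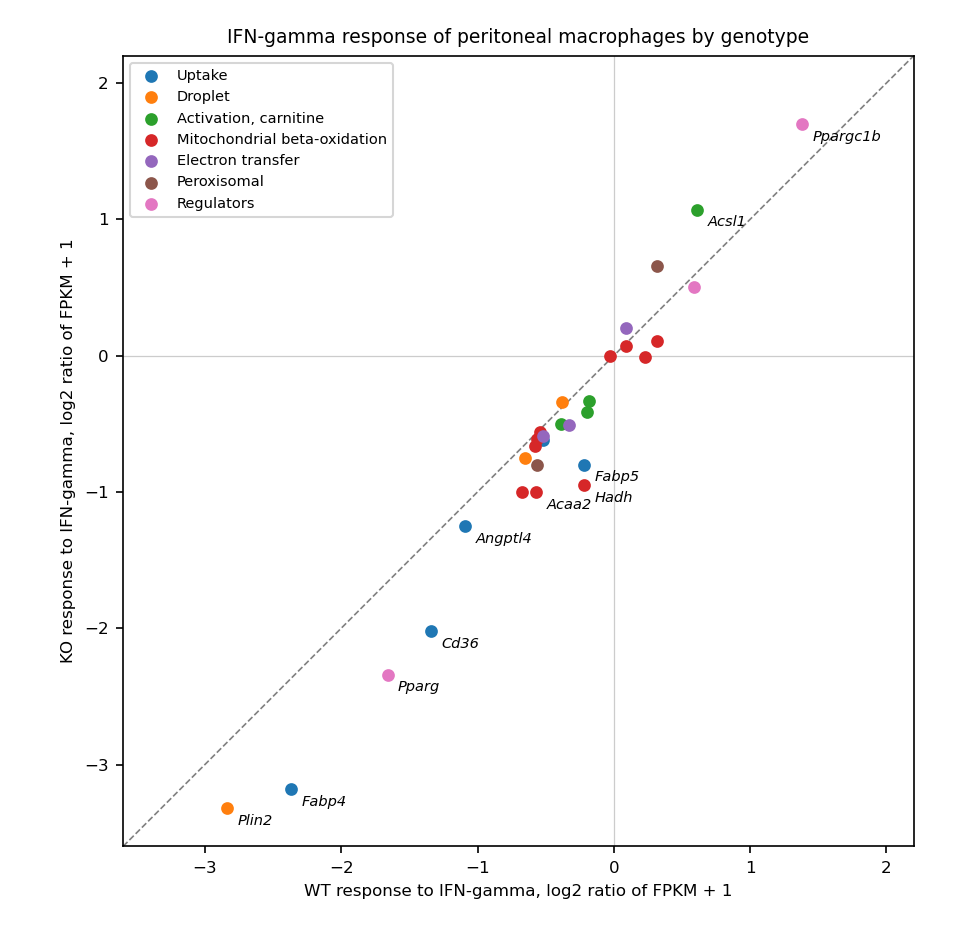
Response of each lipid gene to IFN-gamma in WT (horizontal axis) and KO (vertical axis) peritoneal macrophages, as log2 ratios of FPKM + 1, with 1 point per gene coloured by role. Plin2, Fabp4, Pparg and Cd36 lie below the line of equal response, at -2.84, -2.37, -1.66 and -1.34 in WT and -3.32, -3.18, -2.34 and -2.02 in KO cells.

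The response to IL-4 differed less between genotypes, and it did so over all genes too. The KO response minus the WT response was at least 2-fold higher for 1.51% and lower for 0.834% of all genes with IFN-gamma. With IL-4 these shares were 0.413% and 0.275%. Among the members the differences were as follows. The KO response minus the WT response ranged from -0.08 (Ech1) to 0.38 (Angptl4), with a median of 0.05, against 0.014 over 10906 genes. It was above 0 for 22 of the 29 genes compared, all 5 uptake genes among them, and for 5891 of the 10906. On the log2 scale of FPKM + 1, no member was 2-fold higher or lower with IL-4 in WT cells, against 1.27% and 0.449% of genes. Ppargc1b alone was 2-fold higher in KO cells, at 1.05 on that scale against 0.78 in WT cells, against 1.27% of genes.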

How the data were processed

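RNA of 8 macrophage libraries was sequenced, 1 per combination of cell type, genotype and treatment, grouped by GEO's titles. Per the submitters' processing notes, the authors used Bowtie2 2.2.5, RSEM (version not given in the sources used here) and the mm10 build. The authors' tables give expected counts per gene (whole within 0.005 for 70.1% to 77.8% of genes) and deposited FPKM values, which carry no scaling between libraries. A gene absent from a table was set to 0, and 18076 of 18125 gene IDs matched the RefSeq GRCm38.p6 annotation, which supplied names and promoters.

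Expected counts were rounded and fitted with edgeR 4.0.16 (TMM, filterByExpr, quasi-likelihood test, Benjamini-Hochberg over all genes, called under 0.05) in R 4.3.3. Each cell type was fitted with genotype and cytokine terms (1 residual degree of freedom, common coefficient of variation 10.4% peritoneal and 4.6% bone marrow-derived), and all 8 libraries with pair and genotype terms (3 residual degrees of freedom). Differences between the cell types in cytokine response or genotype effect came from another edgeR model over the 8 libraries, with 6 terms, 2 residual degrees of freedom and a common coefficient of variation of 7.4%. The SE printed with a log2 change is its size over the square root of the F statistic. Any interaction of genotype and cytokine enters the residual. Pairs of libraries were compared as log2(FPKM + 1) over genes whose mean in the cell type was 1 FPKM or more. A level near 1 FPKM corresponded to a median of 29 to 31 counts (peritoneal) or 48.5 to 60 counts (bone marrow-derived). Fits were also run on simulated counts, drawn without an interaction of genotype and cytokine and with less spread than the peritoneal fit showed. Their outcome is not given here and backs no result.

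Alternatives were DESeq2 1.42.0, limma 3.58.1, other scalings and filters, and other pseudocounts. The 30 genes, the other lists and the model with 6 terms were chosen with earlier results of these data known. Genes called in any fit or 2-fold apart in any pair are given in full, and other pathway genes at most 3 per role and fit, by size among those called. Sequences on mouse chromosome 18 are not shown. A result for 1 other pathway gene is not reported here.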

Additional observations from a re-analysis of the deposited data

How the results depend on the processing

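No paired analysis was possible because the labels number no replicates to block on, each group having 1 library, beyond the genotype fit that already holds the 4 conditions as a term. Leaving out a library leaves no residual degrees of freedom in a cell type. No called gene changed direction in any alternative. With DESeq2, 8 members fell and 3 rose with IFN-gamma (14 and 4 with edgeR and TMM), beside 837 and 1251 of 12758 genes with an adjusted p. With IL-4, 5 rose (9 with TMM), beside 662 of 11999 genes. In KO peritoneal cells 2 fell (Fabp4 and Fabp5), beside 22 of 7923 genes. Over the 4 pairs 1 fell (Mgll), beside 35 of 10073 genes. It fell also with edgeR and no filter on low counts, beside 7 of 15948 genes. In KO bone marrow-derived cells, limma on log2(FPKM + 1) called 0 members as fallen (7 at an unadjusted p under 0.05), and edgeR called 2, Lpl and Mgll, with upper quartile scaling, library size alone, no filter, or protein-coding genes only. Of all genes, those fallen there were 182 of 10906 with limma, and 490 and 676 of 12879 with upper quartile scaling and library size alone. They were 726 of 17395 without the filter and 523 of 12277 among protein-coding genes. Without the filter 1 member, Ppard, rose in KO bone marrow-derived cells, beside 527 of 17395 genes. Upper quartile scaling moved the median of all genes with IFN-gamma from -0.012 to -0.129, and library size alone moved it to -0.108. The median of the 30 genes was then -0.56 and -0.53, with 19 and 17 fallen, and all genes called split into 1644 risen and 2405 fallen, or 1637 and 2092, against 2077 and 1796 with TMM. With IL-4, library size alone gave 1385 risen and 1758 fallen genes and upper quartile scaling 1272 and 1450, against 1542 and 1189. Members at least 2-fold higher depended on the scale. With a pseudocount of 5 FPKM there were 0 with IFN-gamma in WT, 0 in KO and 0 with IL-4 in KO cells, and a mean of at least 5 FPKM left 0, 1 and 0. A pseudocount of 0.1 FPKM gave 1 with IL-4 in WT cells. The cause of these shifts was not tested.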
